A study of Mus musculus with 72 samples.

Results

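At 48 h, vehicle-treated CD8+ T cells carried 9681 peaks of H3K27ac, acetylation of histone H3 on lysine 27, and 5662 of them lay within 1000 bases of an annotated gene start. Of these promoter peaks, 3280 (57.9%) shared at least 1 base with an H3K27ac peak of cells grown without glutamine (NoQ), and these kept promoter peaks are described here. The other 2382 overlapped no peak of the glutamine-free list and are called absent, which says only that no peak was listed there at the authors' threshold. The members were chosen by measured values, the positions of the vehicle and NoQ peaks, so the widths, signals and overlaps in those 2 lists are given as descriptions with no test. RNA was measured in other libraries that the choice did not use.

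The cells came from spleens of OT-I mice, which carry a transgenic T cell receptor for SIINFEKL, a peptide of ovalbumin. After lysis of red cells, whole splenocytes were cultured with SIINFEKL at 10 ng/mL and recombinant human IL-2 at 100 IU/mL, so every stimulated group shares the peptide and the cytokine. The groups were RPMI medium without glutamine (NoQ), complete medium with CB-839 at 1 µM, complete medium with DON at 1 µM, and complete medium with vehicle. CB-839 is an inhibitor of glutaminase, DON is a glutamine analog that blocks glutamine-using enzymes, and a single vehicle group stands for both of their solvents, DMSO and PBS. RNA-seq covered these groups at 4 h, 24 h and 48 h and unstimulated cells, 52 libraries in 13 groups of 4. Histone marks were mapped by CUT&RUN, in which an antibody guides a nuclease to its target. At 48 h each treatment had 2 such samples for H3K27ac, 2 for H3K27me3 and 1 for IgG. The labels do not say whether replicates came from separate mice or cultures, so the spread behind each p-value is that of these samples and may be technical. Age and sex of the mice are not given in the sources used here.

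H3K27ac is written by the acetyltransferases CBP and p300 from acetyl-CoA, and it marks active promoters and enhancers. H3K27me3, methylation of the same lysine by the Polycomb enzyme EZH2, marks repressed genes, and a single histone tail cannot carry both on that lysine. In T cells, broad H3K27ac domains lie over genes of T cell identity such as the receptor loci. Glutamine feeds nucleotide, hexosamine and amino acid synthesis and the tricarboxylic acid cycle in activated T cells, and its shortage engages the amino acid response through the transcription factor ATF4.

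A set of 8 promoters at kept peaks are printed to show the range of sequence that kept peaks cover. Rab8b and Cd27 lie at peaks among the highest in vehicle signal, Atf5 and Trib3 had the largest RNA rises without glutamine, and Elovl6, Gzmb and Hmgcs1 the largest RNA falls. Cd8a, a CD8 coreceptor chain, was added after its values were seen. Each is the RefSeq window of 250 bases before the gene start on GRCm38.p6 (mm10), read 5′ to 3′ on the gene's strand. Capitals mark a match on either strand to GGGCGG (GC box), CCAAT (the CCAAT box), TATAAA (the TATA box), CACGTG (E-box), CGGAAG (ETS core), TGACGT (CRE half-site) or TGATGNAA (the core of the C/EBP-ATF response element, a motif added after RNA values were seen).
Rab8b, chr9:66919706-66919955, minus strand: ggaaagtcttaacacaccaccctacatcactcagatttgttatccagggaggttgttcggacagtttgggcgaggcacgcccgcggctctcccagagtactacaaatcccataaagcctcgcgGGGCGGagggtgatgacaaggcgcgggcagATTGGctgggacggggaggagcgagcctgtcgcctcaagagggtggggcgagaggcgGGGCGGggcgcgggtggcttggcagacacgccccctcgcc
Cd27, chr6:125237028-125237277, minus strand: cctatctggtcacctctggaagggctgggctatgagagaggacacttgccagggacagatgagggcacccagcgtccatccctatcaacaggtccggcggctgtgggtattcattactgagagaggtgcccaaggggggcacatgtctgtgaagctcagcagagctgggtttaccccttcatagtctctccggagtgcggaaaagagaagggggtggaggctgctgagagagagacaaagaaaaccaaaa
Atf5, chr7:44816659-44816908, minus strand: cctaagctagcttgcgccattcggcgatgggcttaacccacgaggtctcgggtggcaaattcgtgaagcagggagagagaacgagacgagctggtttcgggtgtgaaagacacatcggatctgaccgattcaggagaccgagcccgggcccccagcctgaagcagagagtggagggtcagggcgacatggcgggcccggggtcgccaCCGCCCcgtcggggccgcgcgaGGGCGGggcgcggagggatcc
Trib3, chr2:152344061-152344310, minus strand: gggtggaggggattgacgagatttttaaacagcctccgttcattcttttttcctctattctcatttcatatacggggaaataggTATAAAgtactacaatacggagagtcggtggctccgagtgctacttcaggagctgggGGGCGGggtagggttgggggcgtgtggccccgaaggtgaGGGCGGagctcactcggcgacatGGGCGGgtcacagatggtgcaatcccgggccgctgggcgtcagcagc
Elovl6, chr3:129532136-129532385, plus strand: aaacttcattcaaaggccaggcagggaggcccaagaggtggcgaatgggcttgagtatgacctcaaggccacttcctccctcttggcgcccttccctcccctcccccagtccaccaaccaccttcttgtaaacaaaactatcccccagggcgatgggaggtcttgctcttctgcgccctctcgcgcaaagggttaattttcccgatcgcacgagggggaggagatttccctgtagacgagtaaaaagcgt
Gzmb, chr14:56262335-56262584, minus strand: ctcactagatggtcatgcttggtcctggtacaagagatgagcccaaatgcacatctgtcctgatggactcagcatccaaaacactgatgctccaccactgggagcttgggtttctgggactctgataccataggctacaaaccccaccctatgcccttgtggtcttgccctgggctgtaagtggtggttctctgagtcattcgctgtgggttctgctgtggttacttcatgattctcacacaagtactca
Hmgcs1, chr13:119690101-119690350, plus strand: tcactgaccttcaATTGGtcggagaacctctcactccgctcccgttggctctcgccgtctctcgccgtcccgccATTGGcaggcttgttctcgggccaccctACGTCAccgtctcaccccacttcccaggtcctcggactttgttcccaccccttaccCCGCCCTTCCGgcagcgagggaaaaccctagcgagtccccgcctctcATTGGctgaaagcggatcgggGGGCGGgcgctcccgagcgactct
Cd8a, chr6:71373177-71373426, plus strand: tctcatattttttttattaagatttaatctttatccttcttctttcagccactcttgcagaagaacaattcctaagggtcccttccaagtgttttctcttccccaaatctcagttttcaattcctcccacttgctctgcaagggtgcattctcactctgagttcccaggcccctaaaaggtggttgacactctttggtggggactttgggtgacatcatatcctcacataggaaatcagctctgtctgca

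These windows ran from CpG-rich to nearly free of CpG. The Atf5 window held 26 CpG dinucleotides, an observed-to-expected ratio of 0.961, and 2 GC boxes at 43 and 21 bases before the start. The Trib3 window held 16 CpG, a ratio of 0.839, with 3 GC boxes and a TATAAA at 166 bases before the start. The Hmgcs1 window held 23 CpG and 7 motif matches, among them 3 CCAAT boxes, all on the opposite strand. By contrast, the Gzmb window held 1 CpG and the Cd8a window 0, and neither held a match, as was so for the windows of Cd27 and Elovl6. Of the 8 windows, 7 lay wholly inside the kept peak, and 70 bases of the Rab8b window did. A match is a run of letters and not a mapped binding site.

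A set of 3 microRNAs at 2 broad kept peaks is shown by their mature sequences from RefSeq, with the seed, bases 2 to 8, in capitals; miR-21 and miR-142 are abundant in lymphocytes.
mmu-miR-21a-5p, chr11:86584120-86584141, minus strand: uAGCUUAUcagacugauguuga
mmu-miR-142a-3p, chr11:87756903-87756925, plus strand: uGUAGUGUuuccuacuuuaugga
mmu-miR-142a-5p, chr11:87756867-87756887, plus strand: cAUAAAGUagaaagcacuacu
The 3 seeds differ from each other. Mir21a lay in a peak of 16656 bases (chr11:86573105-86589760) with a vehicle signal of 25.8, and Mir142 in a peak of 19080 bases (chr11:87741849-87760928) with a vehicle signal of 12.1. Mir21a and Mir142 had 0 counts in the RNA table, so their own expression is not reported here.

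The 3280 kept peaks covered the starts of 4782 genes, 4672 of them with a symbol. RefSeq gave a gene type for 3976, which were 3338 protein-coding genes, 327 lncRNAs, 79 microRNAs and 39 snoRNAs among others. Most kept peaks, 2110, lay at 1 gene start, 984 lay at 2 and 186 at 3 or more. Starts on both strands occurred at 1005 kept peaks (30.6%), where signal cannot be given to one gene. A gene start lay inside 3080 of the peaks (93.9%), and 200 peaks were near a start without covering it. Members were found on 21 chromosomes, 69 of them on X and 1 on Y.

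Kept peaks were broad, with a median width of 2241 bases (quartiles 1535 and 3464), against 1595 bases (quartiles 1080 and 2302) for absent promoter peaks. Widths over 10 kb occurred in 76 kept peaks (2.32%), against 2 absent peaks (0.0840%). The authors' signal value, summed over the 2 replicates, had a median of 10.2 in kept peaks and 9.02 in absent peaks. Kept peaks away from gene starts were wider still, with a median of 2674 bases and 2.56% over 10 kb. Width enters the choice of members, since any shared base counts. The peak centre lay 378 bases from the nearest gene start at the median and fell into the gene rather than before it in 2356 kept peaks (71.8%). The 2 replicates' signals differed by more than 2-fold in 173 kept peaks (5.27%) and 96 absent peaks (4.03%). Across peaks, however, the Pearson correlation of the 2 replicates' signals was only 0.194 in kept and −0.0154 in absent peaks. These correlations cover only peaks that passed the authors' threshold, with a summed signal of at least 7.75. Such a choice can itself lower a correlation, so they do not measure how well the replicates agreed before it. Within these lists the 2 signals went together little, and the order of peaks by signal is to be read loosely.

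**Figure D1:**
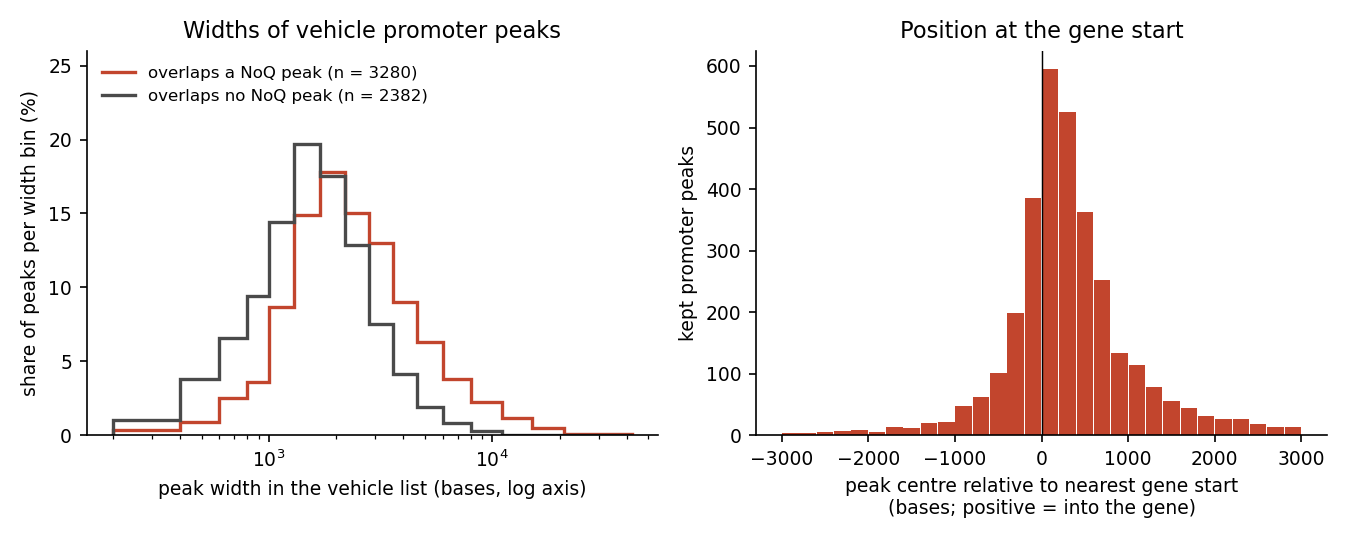
Left, the share of peaks in each width bin (bases, log axis) for the 3280 vehicle promoter peaks that overlap a NoQ peak (red) and the 2382 that overlap none (grey). Right, the distance in bases from the nearest gene start to the centre of each kept peak, positive into the gene, in bins of equal width; 87 peaks lie beyond the plotted range. The red curve is shifted to wider peaks, with medians of 2241 bases for kept and 1595 bases for absent peaks, and most centres fall just inside the gene.

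The overlap with the glutamine-free list was extensive in most members. The median kept peak was covered over 89.3% of its bases, 2951 (90.0%) were covered over at least 50%, and 999 (30.5%) were covered whole. The matched NoQ peaks had a median width of 2339 bases. Members just inside the overlap rule shared 184 bases (Gm12192), 205 bases (Pitpna) and 222 bases (Ndufab1), and the nearest absent peaks missed a NoQ peak by 84 bases (AI413582), 264 bases (Cotl1) and 356 bases (Alkbh2 and Ung). For the distance rule, members just inside it lay 976 (Sectm1a) and 956 bases (Gm23058) from a start, and the nearest peaks left out lay 1015 (Gm43479), 1017 (Gm15884) and 1038 bases (Hnrnpm) away.

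Of the 4 widest kept peaks, 3 lay over T cell receptor loci and 1 at the predicted gene Gm27240 (33799 bases). The widest, a peak of 40903 bases (chr14:54193247-54234149), covered 27 starts, from Traj27 to the alpha constant gene Trac, and another of 26309 bases covered Traj61 to Traj40. The beta locus peak of 27479 bases (chr6:41532335-41559813) covered 19 starts of Trb segments with both constant genes. The next in width lay at B3gnt2 and 3 other starts (22459 bases). Cd247, the receptor zeta chain, had a peak of 21666 bases of which 4538 were shared with a NoQ peak, Ikzf1, the lymphoid transcription factor Ikaros, had 17109 bases, and the adhesion receptor gene Cd2 had 16719 bases. Between and beside these in width lay peaks at Fam169b (17001 bases) and at the pair Zbtb25 and Zbtb1 (16700 bases). The kept list held all 6 of the CD8 T cell markers examined (Cd8a, Cd8b1, Cd3e, Cd3d, Trac and Nkg7), but none of the B cell, NK cell, myeloid or erythroid markers.

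The highest vehicle signals among members were at Gm27240 (32.4; 33799 bases), the Hist1 cluster around Hist1h1c (29.3; 15946 bases) and Nfkb1, which encodes the NF-κB subunit p50 (28.7; 13617 bases). In these 3 peaks the replicates were unequal, with signals of 27.9 and 4.58, 23 and 6.30, and 21.1 and 7.59. The peak at the small GTPase gene Rab8b (chr9:66911107-66919775) had a vehicle signal of 27.1 and the peak over the costimulatory receptor gene Cd27 and its neighbour Tapbpl (chr6:125226139-125242474) had 26.9. Gramd1a, a cholesterol transfer protein gene, followed with 26.7 over 11197 bases. Signal values belong to each peak within its own list and were not compared between lists.

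CpG density was high at kept promoters. Among 2760 of 3338 protein-coding genes with a RefSeq window (82.7%), the median GC content was 60.0% and the median CpG ratio 0.786, against a GC content of 60.4% and a CpG ratio of 0.774 at absent peaks (1989 of 2428 genes) and 55.6% and 0.548 over all 16298 windows. GGGCGG occurred in 59.7% of kept promoters, 64.4% of absent promoters and 43.6% of all promoters. CGGAAG occurred in 31.3% of kept, 32.8% of absent and 17.5% of all promoters, and TGACGT in 12.9% of kept, 11.8% of absent and 7.63% of all promoters. The TATAAA motif was found in 5.91% of kept, 4.52% of absent and 12.1% of all promoters. CCAAT occurred in 35.6% of kept, 38.9% of absent and 36% of all promoters, and CACGTG in 8.70% of kept, 8.95% of absent and 6.69% of all promoters. No test was made between kept and absent promoters.

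Few kept peaks had a counterpart in the H3K27ac lists of the drug-treated cells, which were short: 117 peaks with CB-839 and 33 with DON, against 6687 for NoQ and 9681 for vehicle. The lists give peaks called by the authors from 2 samples each, and read depth behind them is unknown here, so their lengths do not measure acetylation. CB-839 peaks overlapped 65 kept peaks (1.98%) and 5 absent peaks (0.210%). DON peaks overlapped 23 kept peaks (0.701%) and 1 absent peak (0.0420%). From the side of the drug lists, 62 of the 117 CB-839 peaks (53%) and 22 of the 33 DON peaks (66.7%) lay on kept promoter peaks. The members shared with these lists were wide, with median vehicle widths of 3533 bases for CB-839 and 7282 bases for DON. At an IDR (irreproducible discovery rate) of 0.03 or less in every list, 2561 kept peaks were left, of which 2 met a CB-839 peak and 8 a DON peak.

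In all, 83 kept peaks overlapped a CB-839 or DON H3K27ac peak and 5 overlapped both, namely the Hist1 cluster, Ptprc (the phosphatase CD45), the T cell receptor alpha locus, Ppia (cyclophilin A) and a peak at Gm26887 and Gm37352. The CB-839 list also met the kept peaks of Nfkb1, Mir21a, the effector regulator gene Irf4 and Stat5b, a mediator of IL-2 signals. The DON list met the kept peaks of Cd27, the adaptor gene Grap2, Mir142, the survival factor gene Mcl1 and the lactate transporter gene Slc16a1.

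H3K27me3 rarely met a kept promoter. Of the 13556 vehicle H3K27me3 peaks, some overlapped 11 kept peaks (0.335%) and 34 absent peaks (1.43%). The NoQ list of 8795 H3K27me3 peaks overlapped 4 kept peaks (0.122%) and 15 absent peaks (0.630%), the CB-839 list of 12417 overlapped 7 kept and 38 absent peaks, and the DON list of 3533 overlapped 1 kept and 12 absent peaks. In the 4 lists together, 19 kept peaks met an H3K27me3 peak. With at least 50% of the vehicle H3K27ac peak covered, 1 met the vehicle H3K27me3 list and 0 the NoQ list. The longest overlap in vehicle cells was 1568 bases at Lmna, which encodes lamins A and C, followed by 994 bases at Mir142. The immediate-early gene Fosb and the serine hydroxymethyltransferase gene Shmt2 were also among the 11. Lmna was little transcribed, with 3.98 ± 0.285 CPM (counts scaled to a common library size) in NoQ cells and 2.94 ± 0.750 CPM in vehicle cells, whereas Shmt2 had 1245 ± 79.1 CPM in NoQ and 852 ± 108 CPM in vehicle cells (SD, n = 4 each).

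Genes at kept peaks were transcribed in most cases. Among protein-coding genes at kept peaks the median level at 48 h was 12.2 CPM per kb of exon in NoQ cells, 12 with CB-839, 10.3 with DON and 11.9 with vehicle, against 8.87 in unstimulated cells. At absent peaks the medians were 8.93 CPM per kb in NoQ cells, 9.24 with CB-839, 8.49 with DON, 9.24 with vehicle and 6.22 in unstimulated cells. A level of at least 1 CPM per kb in vehicle cells was reached by 92.6% of protein-coding genes at kept peaks, 90.2% at absent peaks and 24.2% at neither. RNA libraries held 25.6 M to 51 M counts (M, mega), and 33.2 M to 48.2 M at 48 h. Vehicle library C at 48 h stood apart from its group: over genes, its counts differed from those of vehicle A, B and D by a chi-square per degree of freedom of 125, 177 and 83.6, whereas pairs among vehicle A, B and D gave 8.40 to 29.1. Counts of called genes are therefore also given without it.

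The summed level of the CD8 T markers was 1558 to 1581 CPM in NoQ libraries and 1702 to 1897 CPM in vehicle libraries at 48 h. Of the 5 CD4 T markers, summed to 202 to 264 CPM in NoQ and 429.7 to 475 CPM in vehicle libraries, most was Ctla4, which activated CD8 T cells also express. B cell markers summed to 4.09 to 4.64 CPM in NoQ and 3.10 to 4.28 CPM in vehicle libraries, with Fcrla at 0 counts in both and Ms4a1 at 0 in vehicle. Myeloid markers summed to 4.14 to 5.45 CPM in NoQ and 2.40 to 3.70 CPM in vehicle libraries, with S100a8 at 0 in both. NK markers stayed at or below 0.484 CPM and erythroid markers at or below 0.292 CPM in both groups. In these bulk samples, fewer cells of a type and less RNA per cell cannot be told apart.

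Without glutamine, RNA of genes at kept promoter peaks moved both ways at 48 h. Of the 4782 genes, 4055 passed the filter on low counts, and 1369 of these (33.8%) were higher and 1000 (24.7%) lower in NoQ than in vehicle cells (edgeR quasi-likelihood test, Benjamini-Hochberg adjusted p under 0.05), beside 28% higher and 26.3% lower of all 16173 genes tested. Without vehicle library C, 1447 genes at kept peaks were higher and 1140 lower, beside 29.6% and 27.8% of all genes. At absent peaks, 717 of 2741 genes (26.2%) were higher and 903 (32.9%) lower. Changes of at least 2-fold were fewer: 204 genes at kept peaks (5.03%) were higher, beside 6.69% of all genes, and 50 (1.23%) were lower, beside 4.62% of all genes. The median log2 change was 0.06 at kept peaks, −0.04 at absent peaks and 0.02 over all genes. With library totals alone as scaling, the median of all genes moved from 0.02 to 0.12. The split at kept peaks became 1692 higher and 703 lower, beside 34.7% and 19.9% of all genes. Changes are thus best read relative to that median. Genes are not replicates, and the shares were not tested against each other.

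**Figure D2:**
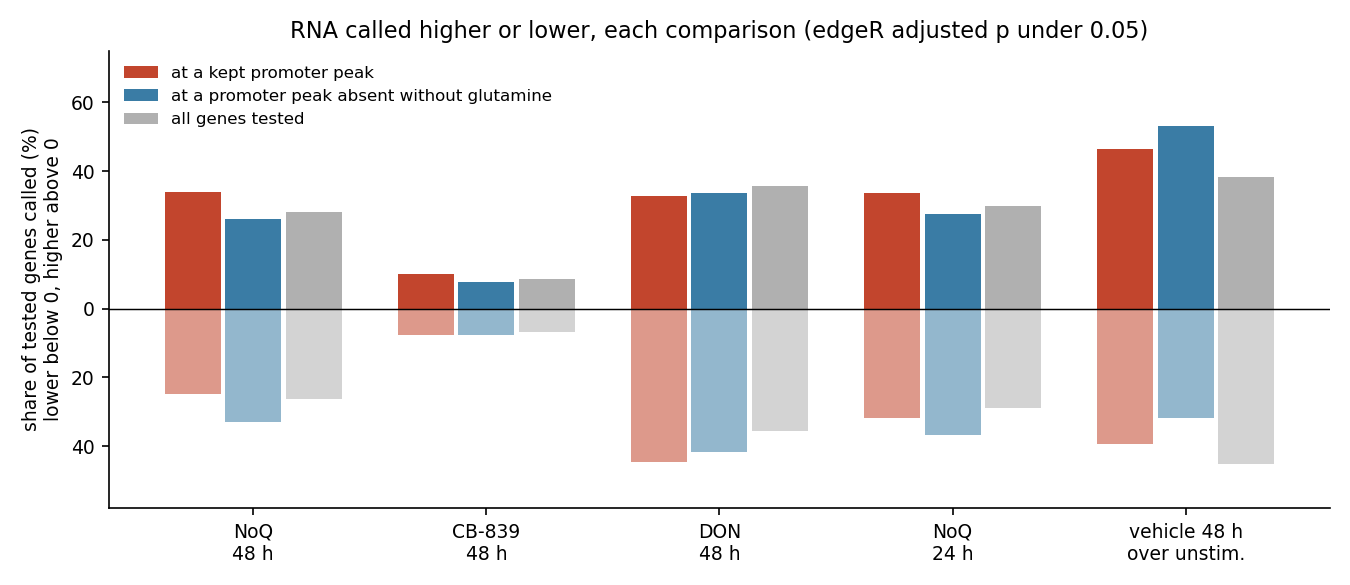
Share of tested genes called higher (bars above 0) or lower (paler bars below 0) at an edgeR adjusted p under 0.05, in percent, for genes at kept promoter peaks (red), at absent promoter peaks (blue) and all genes tested (grey). For NoQ at 48 h the red bars reach 33.8% higher and 24.7% lower; for CB-839 they reach 10.1% and 7.64%, and for DON 32.8% and 44.5%.

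Genes of the amino acid response included the largest rises at kept peaks. Of 36 listed genes of that response, 18 were at kept peaks, and all 18 were higher in NoQ cells at 48 h, with a median log2 change of 0.87 beside 0.02 over all genes. The counts of this and the other lists are to be read beside the 28% higher and 26.3% lower of all genes tested. Atf5, a transcription factor of the ATF family, had 143, 145, 147 and 147 CPM in NoQ libraries, against 10.3, 9.69, 13.6 and 12.4 CPM in vehicle libraries. The 2 groups did not overlap, and the log2 change was 3.68 ± 0.09 (SE; edgeR adjusted p = 3.24e-15). The genes with the largest rises and falls were drawn only from called genes whose NoQ and vehicle libraries did not overlap. For Atf5, Trib3 and others so chosen, lack of overlap follows from the choice and is no added evidence. The share of all genes without overlap is not given here. Trib3, a pseudokinase that binds ATF4, had 261, 275, 268 and 265 CPM in NoQ libraries, against 29.6, 26.3, 35.6 and 37 CPM in vehicle libraries. Every NoQ library lay above every vehicle library, with a log2 change of 3.07 ± 0.10 (edgeR adjusted p = 5.83e-14).

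Ddit3 encodes CHOP, a transcription factor of the stress response. It had 54, 58.5, 56.7 and 58.1 CPM in NoQ libraries, against 10.7, 8.08, 15 and 11.2 CPM in vehicle libraries, again without overlap (log2 change 2.35 ± 0.12, edgeR adjusted p = 1.88e-11). Gpt2, which encodes a mitochondrial alanine transaminase that uses glutamate, had 129, 132, 129.5 and 130.3 CPM in NoQ libraries, against 29.3, 27.6, 23.5 and 34.2 CPM in vehicle libraries. The groups did not overlap there either (2.19 ± 0.11, edgeR adjusted p = 9.14e-12). Ddit3 and Gpt2 were drawn under the same condition. Slc1a4, a neutral amino acid transporter gene, stood at 97.0 ± 2.34 CPM in NoQ and 28.1 ± 1.76 CPM in vehicle cells (SD, n = 4 each), and its log2 change was 1.80 (edgeR adjusted p = 7.39e-13).

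Smaller rises in the same list covered the glutamine transporter gene Slc1a5 (log2 change 0.87), the one-carbon enzyme gene Mthfd2 (0.94), Aldh18a1 of proline synthesis (0.79), the serine synthesis genes Psph (0.75) and Phgdh (0.52), and the tRNA synthetase genes Aars (0.86), Sars (0.66) and Gars (0.45). Atf4 itself rose by 0.40. Not all of the response lay at kept peaks. Another 4 listed genes were at absent peaks, of which 2 were higher and 1 lower. A further 14 were at neither, of which 13 were higher and 1 lower, among them the asparagine synthetase gene Asns (log2 change 2.40). The median log2 change was 0.51 at absent peaks and 2.84 at neither, beside 0.87 at kept peaks. By the median, the larger rises of this list were thus at genes without a vehicle promoter peak. Peaks listed only in NoQ cells were not assigned to genes, so genes at neither class may have a promoter peak there. The core TGATGNAA was found in 2 of the 16 promoter windows of the listed genes at kept peaks (12.5%, Aars and Gars). It occurred in 1.99% of kept, 1.66% of absent and 3.22% of all windows. With 2 genes and a motif added after RNA values were seen, this is a description and was not tested.

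Outside that list, the largest rises at kept peaks were in genes of several roles. Lack of overlap was a condition for choosing these genes too. Mxd4, which encodes a MAX partner that opposes MYC, had 20.2, 23.5, 17.7 and 23 CPM in NoQ libraries, against 3.05, 3.34, 3.66 and 5.25 CPM in vehicle libraries. Its groups did not overlap (log2 change 2.48 ± 0.13, edgeR adjusted p = 3.31e-11). Tnfsf8, which encodes CD30 ligand, had 139, 125, 121 and 158 CPM in NoQ libraries, against 31.9, 32, 25.7 and 32.2 CPM in vehicle libraries, also without overlap (2.16 ± 0.10). Bbc3, which encodes the pro-apoptotic protein PUMA, had 80.5, 80.2, 72.4 and 68.7 CPM in NoQ libraries, against 16.7, 15, 22 and 19.7 CPM in vehicle libraries, and no NoQ library fell within the vehicle range (2.06 ± 0.11). Soat2, a cholesterol-esterifying enzyme gene, averaged 111 ± 3.75 CPM in NoQ and 21.7 ± 2.21 CPM in vehicle cells (SD, n = 4 each).

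The largest falls at kept peaks included the enzyme genes Elovl6 and Hmgcs1. Falls were likewise drawn only from genes whose NoQ and vehicle libraries did not overlap. Elovl6, a fatty acid elongase gene at chr3:129531734-129537084, had 13.8, 13.7, 14.3 and 13.1 CPM in NoQ libraries, against 93.9, 103, 76.8 and 90.1 CPM in vehicle libraries. The groups were far apart, with a log2 change of −2.72 ± 0.08 (edgeR adjusted p = 3.19e-14). Hmgcs1, an enzyme gene of the mevalonate pathway, had 50.2, 51.9, 48.1 and 53.4 CPM in NoQ libraries, against 166, 186, 129 and 162 CPM in vehicle libraries. It too showed no overlap (−1.65 ± 0.09, edgeR adjusted p = 8.01e-11).

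All 4 cholesterol synthesis genes at kept peaks fell, among them Hmgcs1, the isomerase gene Idi1 (log2 change −1.45) and the regulator Srebf2 (−0.83). The 10 listed genes at absent peaks and the 5 at neither fell as well, so the fall did not differ in direction between promoters with and without a kept peak. Their median log2 changes were −1.35 at kept peaks, −1.26 at absent peaks and −1.56 at neither. Soat2, which is not in that list, rose by 2.37. For glycolysis, 9 of 10 genes at kept peaks fell, as did 3 of 3 at absent peaks and 5 of 6 at neither, with medians of −0.98, −0.99 and −0.63. Slc2a1, which encodes the glucose transporter GLUT1, had 58.6, 60.3, 63.0 and 51.7 CPM in NoQ libraries, against 136, 125, 149 and 147 CPM in vehicle libraries. Those ranges were separate (−1.24 ± 0.08, edgeR adjusted p = 1.76e-10). The phosphoglycerate mutase gene Pgam1 fell by 1.14 on the log2 scale and the kinase gene Pdk1 by 0.86. Among the other large falls, the lysophospholipid transporter gene Mfsd2a fell by 1.36 and the enolase gene Eno3 by 1.34.

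Effector genes at kept peaks did not move as a group. Gzmb, which encodes the cytotoxic protease granzyme B, had 1285, 1414, 1592 and 962 CPM in NoQ libraries, against 5382, 5435, 6577 and 4794 CPM in vehicle libraries. The highest NoQ library was below the lowest vehicle library (log2 change −2.07 ± 0.13, edgeR adjusted p = 4.79e-10). Gzmb was among the largest falls, for which that separation was a condition. Of 21 cytotoxic and cytokine genes, 8 were at kept peaks; 4 of these rose and 2 fell. Ccl3, a chemokine gene, fell by 1.24 on the log2 scale, while the lymphotoxin genes Ltb and Lta rose by 0.79 and 0.52 and the cytokine gene Tnf by 0.42. Prf1 (perforin) and Ifng (interferon gamma), with log2 changes of −2.65 and −2.14 (Ifng with 25.9% of its exon bases shared), lay at neither a kept nor an absent promoter peak; of the 10 listed genes at neither that were tested, 1 rose and 6 fell.

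Of 13 effector transcription factor genes at kept peaks, 6 were higher and 2 lower, beside 28% and 26.3% of all genes. Irf4 had 703, 705, 714 and 716 CPM in NoQ libraries, against 525, 543, 431 and 512 CPM in vehicle libraries, without overlap (0.50 ± 0.07, edgeR adjusted p = 3.10e-06). Batf, an AP-1 factor that binds DNA with IRF4, had 45.3, 43.7, 41.8 and 41.4 CPM in NoQ libraries, against 72.0, 62.8, 104 and 79.7 CPM in vehicle libraries (−0.87 ± 0.10, edgeR adjusted p = 4.83e-07). The groups were separate for both genes, in opposite directions. Tbx21, which encodes T-bet, had 118, 139, 142 and 101 CPM in NoQ and 112, 109.6, 137 and 118 CPM in vehicle libraries, and the ranges overlapped (0.08 ± 0.10, edgeR adjusted p = 0.503). Prdm1, which encodes BLIMP-1, had a log2 change of −3.47 and no promoter peak in the vehicle list.

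Receptor genes with kept peaks also split. In the T cell receptor list, 15 of 16 genes were at kept peaks, and 4 rose (among them Lcp2, Cd5 and Cd6) and 7 fell (Cd2, Cd8b1, Cd8a, Lat, Cd247, Lck and Cd3g). Cd8a had 507, 499, 505 and 529 CPM in NoQ libraries, against 654, 648, 649 and 652 CPM in vehicle libraries, a small but separated fall (−0.34 ± 0.04, edgeR adjusted p = 1.01e-06). Lcp2, which encodes the adaptor SLP-76, rose by 0.41 on the log2 scale. Cd3e had a log2 change of 0.10 (edgeR adjusted p = 0.133). With library totals alone as scaling Cd3e passed the threshold at 0.20, and Lck and Cd3g did not, at −0.08 and −0.02. The Lck call was also lost without NoQ library D (−0.14, edgeR adjusted p = 0.0532) and with only the 8 NoQ and vehicle libraries fitted (−0.19, edgeR adjusted p = 0.0585). The Cd3g call was also lost without any of 6 single libraries, vehicle B or C or NoQ A, B, C or D. Cd247 shares 60.3% of its exon bases with other genes, which limits its count.

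The checkpoint receptor gene Pdcd1 (PD-1; peak at chr1:94046267-94056210) had 18.2, 22.4, 20.5 and 18.4 CPM in NoQ libraries, against 57.8, 58.3, 60.1 and 62.2 CPM in vehicle libraries. The groups did not overlap (−1.58 ± 0.07, edgeR adjusted p = 1.88e-12). Tigit fell by 1.09 and Tnfrsf9, which encodes 4-1BB, by 0.75 on the log2 scale, while the early activation receptor gene Cd69 rose by 0.82 and Lag3 by 0.33. Il7r, the receptor gene for the survival cytokine IL-7, had 23.1, 22.5, 24.6 and 19.1 CPM in NoQ libraries, against 56.8, 65.6, 46.8 and 51.3 CPM in vehicle libraries. It fell by 1.30 ± 0.10 without overlap (edgeR adjusted p = 6.32e-09). Pdcd1 and Il7r were among the largest falls, so lack of overlap was a condition of their choice. Among the other naive and memory genes at kept peaks, the homing receptor gene Ccr7 rose by 0.77 and Bcl2 by 0.69.

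Foxp3, the regulatory T cell factor, was the single CD4 T marker at a kept peak; it was singled out after its values were seen. It averaged 1.16 ± 0.645 CPM in NoQ and 0.236 ± 0.108 CPM in vehicle cells (SD, n = 4 each), a log2 change of 2.29 ± 0.40 (edgeR adjusted p = 8.37e-05), and 31.5% of its exon bases are shared with other genes. The part that cells of another type had in these differences was not tested.

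Interferon-stimulated genes at kept peaks rose in 7 of 11 cases and fell in 2. The transcription factor gene Irf1 rose by 0.98 and the guanylate-binding protein genes Gbp5 and Gbp2 by 1.18 and 1.08, while the immunoproteasome gene Psmb8 fell by 0.42 and Bst2 by 0.63. The rise did not extend to the rest of that list. At absent peaks 0 of 2 rose and 1 fell. At neither class 3 of the 13 tested rose and 4 fell, with a median log2 change of −0.03 beside 0.57 at kept peaks. In the list of p53 targets and the BCL2 family, 6 of 10 genes at kept peaks rose and 3 fell; the anti-apoptotic genes Bcl2, Bcl2l1 and Mcl1 rose with Bbc3, while the pro-apoptotic gene Bak1, which shares 25.5% of its exon bases with another gene, fell by 0.53. Opposed members of the family thus rose together.

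Genes of ribosome biogenesis and ribosomal proteins differed. Of 14 genes of MYC and ribosome biogenesis at kept peaks, 9 fell, with a median log2 change of −0.18, and the 2 that rose, Mxd4 and Mnt, encode MAX partners that oppose MYC. All 8 listed genes at absent peaks fell, with a median of −0.61. Ncl, which encodes nucleolin, had 3137, 3147, 3147 and 3262 CPM in NoQ libraries, against 5136, 5536, 4657 and 4630.1 CPM in vehicle libraries, and the ranges were separate (−0.65 ± 0.07, edgeR adjusted p = 1.89e-07). Bop1 fell by 0.88 and Nop2 by 0.70. Of 19 cytosolic ribosomal protein genes at kept peaks, 1 rose and 2 fell (Rps27, by 0.66, and Rps23, by 0.52), and these genes have near-identical copies that the counting may have split.

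Cell cycle genes were below vehicle in 7 of 13 cases at 48 h and above it in 3 (Cdc45, Ccnd2 and E2f2). The cyclin gene Ccnb1 fell by 0.83 and Ccne1 by 0.92. Of the listed enzymes of glutamine and glutamate use, 4 of 11 at kept peaks rose, among them Gpt2, and 3 fell. These shares are near the 28% and 26.3% of all genes and not a result about this list. The 3 that fell act in nucleotide synthesis: Gmps (−0.63), Ppat (−0.43) and Ctps (−0.16). The Ctps call was lost with library totals alone (edgeR adjusted p = 0.44) and without vehicle A or B or NoQ A or C. Oxidative phosphorylation genes numbered 6 at kept peaks, of which the succinate dehydrogenase genes Sdhd and Sdhb fell (by 0.61 and 0.24); Sdhb was no longer called with library totals alone as scaling (edgeR adjusted p = 0.0869).

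Of 11 genes of H3K27 writers, erasers and readers at kept peaks, 3 rose (Kat2b, Jarid2 and Hdac7) and 2 fell (Hdac2, by 0.29, and Brd2, by 0.15). That is near the 28% and 26.3% of all genes and not a result about this list. Of 7 listed genes at neither class of promoter peak, 4 rose and 2 fell, and the H3K27 demethylase gene Kdm6b, at neither, rose by 0.72. Ezh2 had a log2 change of −0.09 (edgeR adjusted p = 0.336), which was 0.01 with library totals alone as scaling and −0.17 without vehicle library C (edgeR adjusted p = 0.0146). Brd2 was no longer called with library totals alone (edgeR adjusted p = 0.405), and the Hdac7 call was lost with DESeq2 (adjusted p = 0.0718) and without vehicle A or B or NoQ B or C. The p300 gene Ep300 lay at an absent peak.

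**Figure D3:**
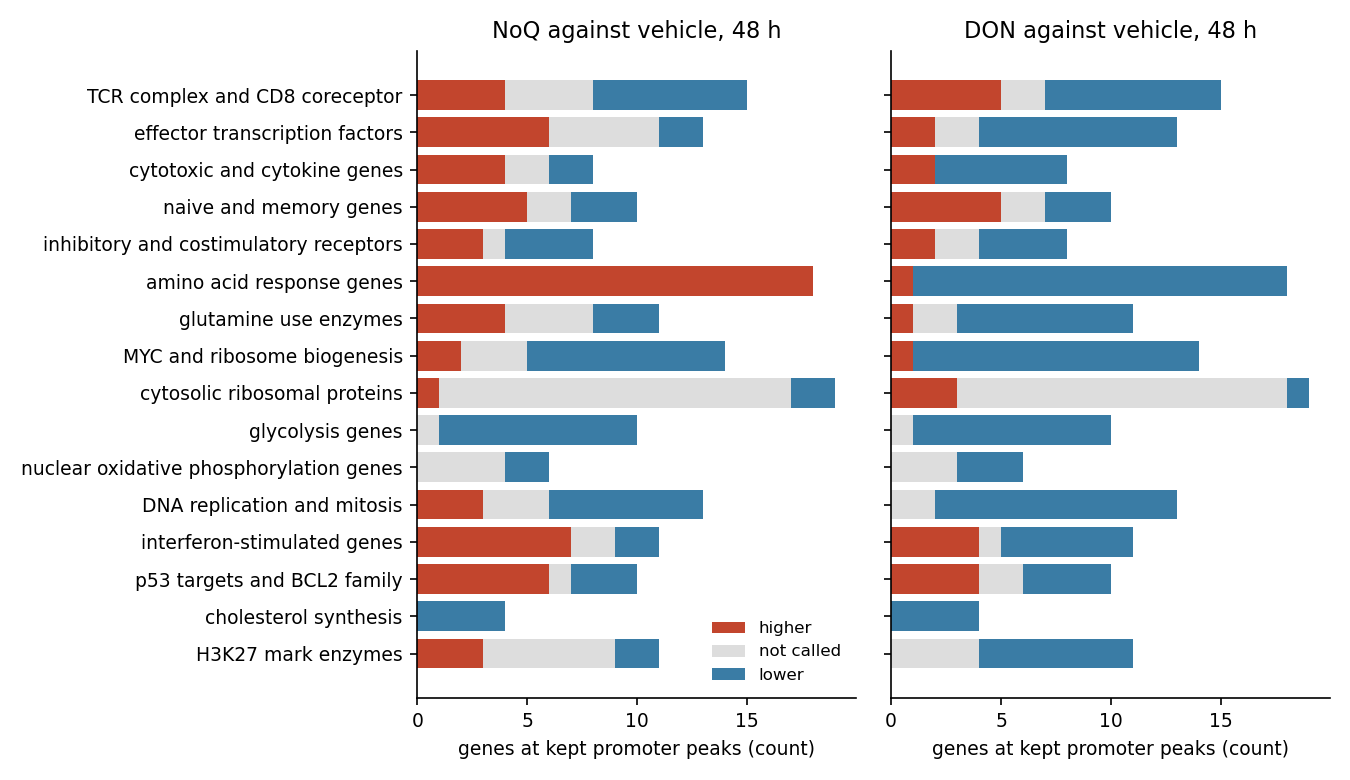
For each of 16 gene lists, the number of genes at kept promoter peaks that were higher (red), not called (grey) or lower (blue) against vehicle at 48 h, for NoQ (left) and DON (right), by edgeR adjusted p under 0.05. The amino acid response bar is red throughout for NoQ (18 of 18) and blue for 17 of 18 with DON, whereas glycolysis and cholesterol synthesis bars are blue in both panels.

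RNA of genes at the highest H3K27ac signals moved either way or was not called. Gm27240, at the highest signal, is a predicted gene and was not eligible for RNA values here. Hist1h1c, a linker histone gene with near-identical relatives, had 3.99, 3.81, 4.30 and 4.20 CPM in NoQ libraries, against 8.72, 7.14, 9.90 and 8.26 CPM in vehicle libraries, and fell without overlap (−1.05 ± 0.10, edgeR adjusted p = 8.23e-08). Nfkb1 had 569, 555, 561 and 554 CPM in NoQ libraries, against 599, 584, 541 and 571 CPM in vehicle libraries, which overlapped (−0.03 ± 0.05, edgeR adjusted p = 0.632; 0.07 with library totals alone). Rab8b had 150.4, 151, 153 and 169 CPM in NoQ libraries, against 125, 146, 79.5 and 108 CPM in vehicle libraries (0.45 ± 0.13, edgeR adjusted p = 0.00815). Cd27 stood at 149 ± 5.52 CPM in NoQ and 109 ± 9.40 CPM in vehicle cells, and Gramd1a at 179 ± 4.40 CPM in NoQ and 121 ± 17.6 CPM in vehicle cells (SD, n = 4 each). Their log2 changes were 0.45 and 0.58.

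Promoters of kept genes whose RNA moved at least 2-fold had lower CpG ratios. The median CpG ratio was 0.677 for the 78 windows of genes that rose and 0.546 for the 31 of genes that fell, against 0.800 for the 1041 of genes that were tested and not called. CGGAAG was found in 16.7% of windows of genes that rose, 16.1% of those that fell and 33.7% of those not called. CCAAT was found in 37.2% of windows of genes that rose, 54.8% of those that fell and 35.9% of those not called. These subsets were drawn by their RNA, and no test was made on them.

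**Figure D4:**
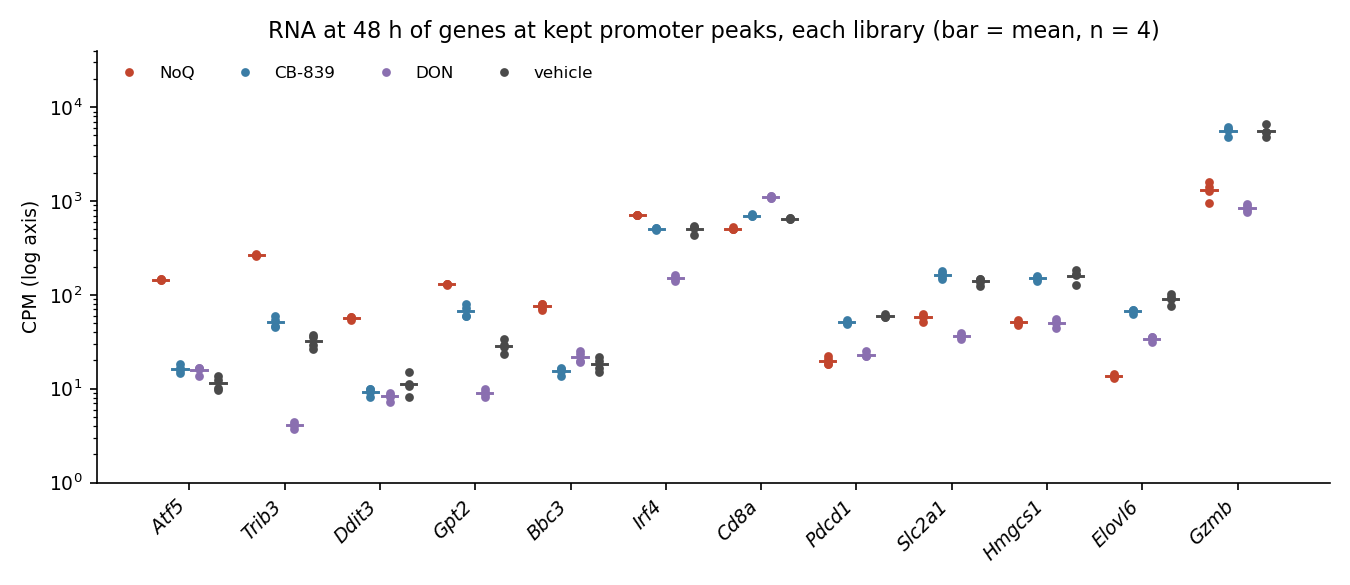
CPM in each library at 48 h (log axis) of 12 genes at kept promoter peaks, with a bar at the mean of 4 libraries, for NoQ (red), CB-839 (blue), DON (purple) and vehicle (dark grey). Atf5, Trib3, Ddit3, Gpt2 and Bbc3 lie highest in NoQ; Gzmb, Elovl6, Hmgcs1, Slc2a1 and Pdcd1 lie below vehicle in NoQ and DON, with CB-839 closer to vehicle.

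CB-839 and DON were compared with the same vehicle libraries, so the 3 treatment contrasts share their controls and are given side by side. With CB-839, 408 of 4055 genes at kept peaks (10.1%) were higher and 310 (7.64%) lower at 48 h, beside 8.50% and 6.73% of all genes. Without vehicle library C these counts were 587 higher and 572 lower, beside 12.1% and 11.1% of all genes. Without CB-839 library A they were 276 and 152, beside 5.61% and 3.93%. The count of lower genes thus moved by over 1.5 times with single libraries, and the shares of all genes moved with it. With DON, 1331 genes (32.8%) were higher and 1804 (44.5%) lower, beside 35.6% and 35.6% of all genes. Without vehicle library C the DON counts were 1419 higher and 1897 lower. Library totals alone gave 1720 higher and 1357 lower for DON, beside 44.6% and 26.4% of all genes. The median of all genes was then 0.19 instead of −0.00, so the direction of that majority depended on the scaling.

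The amino acid response genes were mostly higher with CB-839 and lower with DON. CB-839 raised 15 of the 18 listed genes at kept peaks and lowered 0, with a median log2 change of 0.28, and DON raised 1 and lowered 17, with a median of −0.99. Trib3 averaged 267 ± 5.84 CPM in NoQ cells, 51.5 ± 6.80 with CB-839, 4.09 ± 0.274 with DON and 32.1 ± 5.05 with vehicle (SD, n = 4 each). Gpt2 averaged 130.3 ± 1.44 CPM in NoQ cells, 68.1 ± 10.2 with CB-839, 8.97 ± 0.735 with DON and 28.7 ± 4.42 with vehicle. Atf5 was the listed gene that DON raised, by 0.49 on the log2 scale (edgeR adjusted p = 0.000107). Ddit3 had a log2 change of −0.27 with CB-839 (edgeR adjusted p = 0.153) and of −0.42 with DON (edgeR adjusted p = 0.00602). The DON call was lost with library totals alone (−0.22, edgeR adjusted p = 0.0987). The CB-839 fall was called without vehicle library B (−0.39, edgeR adjusted p = 0.018).

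Several genes fell in both NoQ and DON cells. Gzmb averaged 1313 ± 266 CPM in NoQ cells, 843 ± 73.3 with DON, 5611 ± 558 with CB-839 and 5547 ± 745 with vehicle, and every NoQ library lay above every DON library. Hmgcs1 averaged 50.9 ± 2.25 CPM in NoQ cells, 50.3 ± 4.54 with DON, 149.9 ± 8.70 with CB-839 and 161 ± 23.7 with vehicle. In both NoQ and DON cells 9 of 10 glycolysis genes and 4 of 4 cholesterol genes at kept peaks fell; with CB-839, 4 of the 10 glycolysis genes rose and 1 fell. Other genes differed between the treatments: Irf4 had log2 changes of 0.50 in NoQ and −1.71 with DON, Cd8a −0.34 in NoQ and 0.78 with DON, Il7r −1.30 in NoQ and 0.83 with DON, and Lta 0.52 in NoQ and −2.86 with DON. DON also changed T-bet (Tbx21, −2.65) and 13 of the 14 ribosome biogenesis and MYC genes in the downward direction. No test was made of the difference between treatments.

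At 24 h, 1360 of 4036 tested genes at kept peaks (33.7%) were higher and 1284 (31.8%) lower in NoQ than in vehicle cells, beside 30% and 28.9% of all genes. Library totals alone gave 1702 higher and 998 lower, beside 36.8% and 23.1% of all genes. The 18 amino acid response genes were all higher at this time too, with a median log2 change of 0.69. Of the 13 cell cycle genes at kept peaks, 12 were below vehicle at 24 h, with a median log2 change of −1.48, and 7 at 48 h, with a median of −0.21. Ccnb1 averaged 7.45 ± 0.730 CPM in NoQ and 168 ± 11.8 CPM in vehicle cells at 24 h, and 101 ± 2.42 CPM in NoQ and 181 ± 8.19 CPM in vehicle cells at 48 h (SD, n = 4 each). H3K27ac was measured only at 48 h, so the state of these promoters at 24 h is not known.

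The genes at kept peaks included many whose RNA differed between unstimulated cells and vehicle cells at 48 h. Comparing vehicle cells at 48 h with unstimulated cells, 1908 of 4123 tested genes at kept peaks (46.3%) were higher and 1618 (39.2%) lower, beside 38.3% and 45.1% of all genes; at absent peaks 53.1% were higher and 31.7% lower. Without vehicle library C, 1945 genes at kept peaks were higher and 1626 lower, beside 38.5% and 45.4% of all genes. Library totals alone gave 1573 higher and 1969 lower, beside 32.3% and 52.2% of all genes, and moved the median of all genes from −0.16 to −0.44. All 13 cell cycle genes and all 11 enzyme genes of glutamine and glutamate use at kept peaks were higher after activation. Of the T cell receptor genes 12 of the 15 were lower, and of the naive and memory genes 9 of the 10. Gzmb rose by 8.53 and Pdcd1 by 6.73 on the log2 scale, and Mxd4 fell by 5.10. In this contrast 8 of 9 B cell, 3 of 3 NK, 9 of 9 myeloid and 5 of 5 erythroid markers were lower. Their median log2 changes were −3.83, −4.59, −3.65 and −6.09, beside −0.86 for the 6 CD8 T markers, all lower. CD4 T markers moved both ways. In these bulk samples from whole splenocytes, activation and a change in the mix of cells cannot be told apart.

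Over time, Trib3 averaged 2.57 ± 0.381 CPM in unstimulated cells and 149.5 ± 13.7, 167 ± 20.2 and 267 ± 5.84 CPM in NoQ cells at 4 h, 24 h and 48 h, against 9.98 ± 0.629, 32.5 ± 7.96 and 32.1 ± 5.05 CPM with vehicle (SD, n = 4 each). It was thus already high without glutamine at 4 h. Gzmb averaged 194 ± 63.1 CPM in NoQ and 255 ± 24.1 CPM in vehicle cells at 4 h, 2104 ± 515 CPM in NoQ and 5070.0 ± 614 CPM in vehicle cells at 24 h, and 1313 ± 266 CPM in NoQ and 5547 ± 745 CPM in vehicle cells at 48 h. The NoQ and vehicle means were close at 4 h and apart later. Pdcd1 peaked at 4 h, with 198 ± 9.49 CPM in NoQ and 228 ± 19.6 CPM in vehicle cells, and then declined in both. Mxd4 stood at 118 ± 6.13 CPM in unstimulated cells and at 109.6 ± 9.75 CPM with DON at 48 h, against 21.1 ± 2.70 CPM in NoQ cells and 3.82 ± 0.982 CPM with vehicle at that time.

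**Figure D5:**
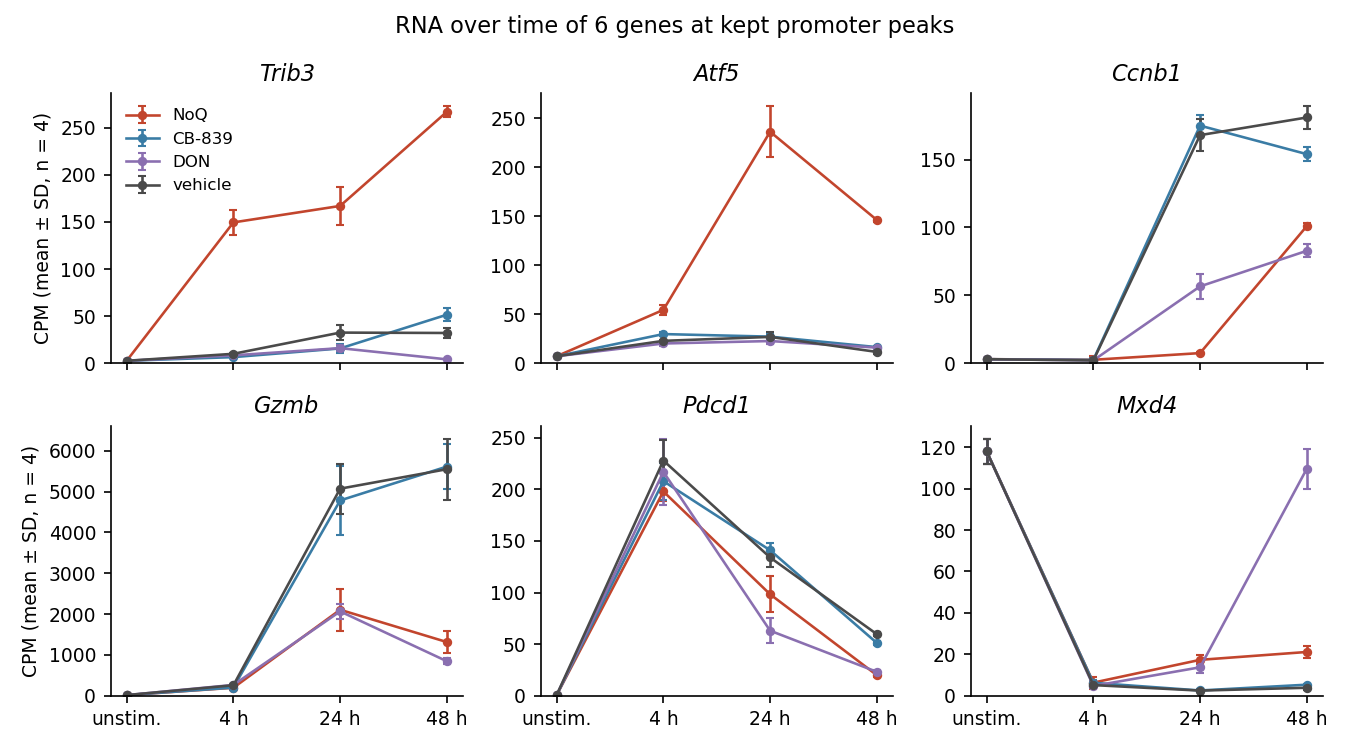
Mean CPM ± SD (n = 4) of 6 genes at kept promoter peaks in unstimulated cells and at 4 h, 24 h and 48 h, times drawn at even spacing, for NoQ (red), CB-839 (blue), DON (purple) and vehicle (dark grey). Trib3 and Atf5 separate in NoQ from 4 h on, Ccnb1 is low in NoQ at 24 h, Gzmb is lower in NoQ and DON than with vehicle from 24 h, and Mxd4 returns with DON at 48 h.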

How the data were processed

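The deposited RNA-seq values are raw counts per gene. Per the file headers, featureCounts 2.0.1 counted read pairs in exons of GENCODE M25 (mm10) with no strand option. The libraries were stranded, per the labels' protocols, but reads of overlapping and antisense genes cannot be told apart in these counts. The aligner's version is not given in the sources used here. The authors deposited 1 peak list for each mark and treatment, merged from 2 replicates at an IDR (irreproducible discovery rate) of 0.05. Each deposited list holds the authors' IDR score, a signal value summed over the replicates, the signal of each replicate and the −log10 IDR. The lists do not say which replicate is A or B.

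Gene starts were taken from the count table and promoter peaks from a window of 1000 bases. Tests used edgeR 4.0.16 in R 4.3.3 (TMM scaling, filterByExpr, robust quasi-likelihood fit, Benjamini-Hochberg threshold 0.05). The 16 libraries of a time shared 1 fit, and unstimulated cells were fitted with vehicle libraries. CPM in the text use the TMM-scaled library size. Genes tested were 16173 at 48 h, 16269 at 24 h and 18317 for activation. Alternatives were DESeq2 1.42.0, other scalings, no count filter, the replicate block, fewer libraries, other windows, 50% overlap and stricter IDR. No 2 libraries were identical or within sampling noise, and 0 columns of sample values were left unused. The members, the 16 gene lists and the 6 marker lists were chosen with earlier results of these data known.

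Named genes have a start at a kept peak; predicted genes, clones and receptor segments were not eligible. They are the 8 largest rises and 8 largest falls in NoQ at 48 h (adjusted p under 0.05, mean log2 CPM at least 3, groups not overlapping), genes at the 8 highest-signal and 4 widest kept peaks, up to 4 per list by adjusted p, a panel of 28 genes, and up to 8 genes each at kept peaks meeting drug H3K27ac lists and meeting H3K27me3 lists. Other list members are named to spell out a list's count, and were chosen after their values were seen. Promoter sequences are RefSeq's for GRCm38.p6. Some genes of the lists and the panel are not reported here.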

Additional observations from a re-analysis of the deposited data

Results flagged for a closer look

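Within groups of 4 libraries at 48 h, 214 combinations of a named gene and a group were examined for a library that stands apart by Dixon's 95% criterion on the gap to its nearest neighbour. About 1 in 20 groups would show this by chance, and 12 were found. Vehicle library C accounted for 6, and it stood apart over all genes as well, with a chi-square per degree of freedom of 83.6 to 177 against the other vehicle libraries, whose own pairs gave 8.40 to 29.1. It was low for Tnfsf8 (25.7 CPM), Bcl2 (143 CPM) and Gars (453 CPM), and high for Mfsd2a (51.4 CPM), Rps27 (17.1 CPM) and Sdhd (314 CPM). NoQ library D accounted for another 4. It was high for Ncl (3262 CPM) and Rab8b (169 CPM), and low for Lck (420.3 CPM) and Lta (407 CPM). NoQ library C was high for Ccl3 (13.4 CPM), and vehicle library B was low for Aars (372 CPM). For 11 of these genes the NoQ and vehicle libraries did not overlap with that library included, and for Lck they did. For Tnfsf8 and Mfsd2a, lack of overlap was a condition of their choice. Most of the others were named for a small adjusted p in their list or after their values were seen, which favours lack of overlap. The share of all genes without overlap is not given, so this count is no added evidence.

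In NoQ, 2 genes were called in opposite directions at 48 h and 24 h, with NoQ and vehicle libraries apart at both times; the difference between the times was not tested. Cd3g had a log2 change of −0.12 at 48 h and 0.47 at 24 h, and E2f2 had 0.23 at 48 h and −2.22 at 24 h. The Cd3g call at 48 h was unstable. It was lost with library totals alone (−0.02, edgeR adjusted p = 0.808), with the replicate block and when single libraries were left out.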

How the results depend on the processing

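The number of kept peaks was 3223 with a window of 500 bases, 3441 with 2500 bases, 2951 with an overlap of at least 50%, 2561 at an IDR of 0.03 and 268 at an IDR of 0.025. The kept share of vehicle promoter peaks fell as well, from 57.9% at the authors' threshold to 50.4% at an IDR of 0.03 and 10.8% at 0.025. The split into kept and absent peaks thus depends on the peak threshold. The 2 stricter IDR limits were chosen after seeing the data, because no vehicle or NoQ H3K27ac peak reaches the planned IDR of 0.01, which gave no value. At an IDR of 0.025 the kept genes called fell with the number of peaks: in NoQ at 48 h 114 were higher and 80 lower (194 in all), with CB-839 27 and 24 (51), with DON 115 and 155 (270), in NoQ at 24 h 122 and 116 (238), and in vehicle over unstimulated cells 163 and 142 (305). The shares of all genes called do not depend on the peak rule. Overlaps of kept peaks with other lists were few and moved with the rule. DON H3K27me3 met 2 kept peaks with the 2500-base window. With 50% overlap, NoQ and CB-839 H3K27me3 each met 0 and vehicle H3K27me3 met 1. At an IDR of 0.03, NoQ H3K27me3 met 2, CB-839 H3K27ac 2, DON H3K27ac 8 and vehicle H3K27me3 5. At 0.025, NoQ H3K27me3, CB-839 H3K27ac and CB-839 H3K27me3 met 0, DON H3K27ac 1 and vehicle H3K27me3 2.

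The CB-839 counts were the least stable. Fitted on its own 8 libraries, CB-839 gave 179 higher and 106 lower (285), beside 4.29% and 2.88% of all genes. With the replicate block as well it gave 49 and 23 (72), beside 1.45% and 0.803%. Leaving out 1 library gave 276 to 587 higher, 152 to 572 lower and 428 to 1159 in all for CB-839. For NoQ at 48 h the ranges were 1257 to 1447, 911 to 1140 and 2171 to 2587. For DON they were 1285 to 1419, 1729 to 1897 and 3030 to 3316, for NoQ at 24 h 1224 to 1346, 1220 to 1300 and 2504 to 2613, and for vehicle over unstimulated cells 1871 to 1945, 1581 to 1626 and 3458 to 3571. The cause was not tested. DESeq2 gave 1328 higher and 1096 lower for NoQ at 48 h; of the 2369 genes edgeR called there, DESeq2 also called 2322 and 0 were called in the opposite direction.

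Replicate letters are shared across groups, but in no comparison did every same-letter pair correlate above 0.1, and no label ties a letter to a mouse or batch, so the letters were not taken as pairs; this does not show that they carry no pairing. With the replicate block, 1323 genes were higher and 967 lower in NoQ at 48 h, 379 and 250 with CB-839, 1319 and 1775 with DON, 1499 and 1392 (2891) in NoQ at 24 h, and 1898 and 1620 after activation. In the same order, the shares of all genes were 27.1% and 25.6%, 7.72% and 5.78%, 35.3% and 35.2%, 32.7% and 31.1%, and 38.2% and 44.9%. In NoQ at 24 h every library correlated best with its own letter, a hint from the data and not from the design.

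Over 161 gene values and 2415 alternative values, 2339 kept their direction and side of the threshold, 66 lost the call, 4 gained one and 6 changed sign. The sign changes were Gzmb with CB-839, which ranged down to −0.05 when 1 library was left out (−0.00 without CB-839 A, −0.03 without CB-839 C, −0.05 without vehicle D), and, with library totals alone, Runx3 (0.07), Nfkb1 (0.07) and Ezh2 (0.01). None of these passed the threshold in edgeR. Read depth behind the peak lists is unknown here, so a missing peak is not evidence of missing acetylation.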
